A study of Drosophila melanogaster with 6 samples.

Results

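Complex I of the respiratory chain, the NADH:ubiquinone oxidoreductase, is built from subunits of nuclear and of mitochondrial origin, and the transcripts of its nuclear subunits are described here in CG1603PBac and wild-type *Drosophila* larvae. The members were the rows whose symbol is on a list of 34 mostly older gene names of these subunits. Of these, 32 symbols were found among the 16727 genes counted in each library. The symbols CG3683 and CG12079 had no row. Both are older names of ND-19 and ND-30, genes that are counted under the symbols NDUFA8 and NDUFS3, and their values are given beside those of the members without being counted among them. Among the 32 genes, 6 encode core subunits and 25 accessory subunits. ND-MLRQ was kept apart from both classes, because its mammalian counterpart NDUFA4 is now assigned to cytochrome c oxidase.

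Poly(A) RNA was sequenced from whole second-instar larvae, with 3 biological replicates of homozygous CG1603PBac and 3 of wild type (wt). Larvae of both genotypes were collected at the same age after egg laying, and the study reports that homozygous mutants arrest at the second instar. The part that a difference in developmental progress has in the values below was not tested. CG1603 encodes a C2H2 zinc finger protein. The CG1603PBac allele, PBac[SAstopDsRed]LL06826, is a piggyBac insertion in an intron of that gene that carries a splice acceptor, stop codons and a DsRed marker, and the line had been backcrossed to w1118 before homozygous larvae were picked from among larvae with the GFP-marked CyO balancer. Every tissue of such a larva is mutant, the strain of the wt larvae is given only as wild type, and in RNA from whole animals fewer cells of a type and less RNA per cell cannot be told apart.

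Complex I oxidizes NADH in the matrix and hands the electrons through a flavin and a chain of iron-sulfur clusters to ubiquinone, while it pumps protons across the inner membrane. It has the shape of a boot. The matrix arm holds the N module, where NADH is oxidized, and the Q module, where ubiquinone is reduced, and the membrane arm holds the proton-pumping P module around the subunits encoded by mitochondrial DNA. Core subunits have counterparts in bacteria and include those that carry the cofactors, whereas accessory subunits surround them and are needed for assembly and stability. In *Drosophila*, the complex is abundant in tissues with a high respiratory demand, such as muscle.

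The libraries held between 27100927 and 36016914 reads assigned to genes in CG1603PBac and between 33377603 and 34883345 in wt. Between 30.9 and 31.8% of the reads did not align in the CG1603PBac libraries, against 8.39 to 9.09% in the wt libraries. The count of CG1603 itself was higher in the mutant, with 956, 999 and 1072 reads in CG1603PBac and 613, 493 and 571 in wt (log2 fold change 0.57, SE 0.13, edgeR adjusted p = 3.62e-04), and since the insertion lies in an intron, this gene-level count does not check the label. With edgeR's quasi-likelihood test and Benjamini-Hochberg adjustment, 3946 of 11306 genes tested were lower in CG1603PBac (34.9%) and 3936 were higher (34.8%), so that 49.9% of the calls were higher. Scaling by library totals alone put that share at 68.7% and the log2 median over all tested genes at 0.45, against 0.06 with TMM scaling. Tissue markers differed as well. Of 18 muscle genes, 16 were lower and 1, Msp300, was higher, with a summed level of 31283 to 31398 CPM (counts scaled to the TMM-adjusted size of each library) in CG1603PBac and 78423 to 83674 CPM in wt, and TpnC41C stayed under 1 CPM in every library. All 15 neuronal genes were higher (summed 2203 to 2316 CPM in CG1603PBac, 808 to 923 CPM in wt). Of 12 midgut genes, 10 were lower and 2 were higher (3061 to 3167 CPM in CG1603PBac, 6661 to 7244 CPM in wt). Of 7 tested fat body genes, 4 were lower, 1 was higher and 2 did not pass the test. The summed level of the fat body list was 842 to 905 CPM in CG1603PBac and 2880 to 3174 CPM in wt, with Fbp1 at 0 throughout. All 16 cell cycle genes were lower (148 to 153 CPM in CG1603PBac, 655 to 672 CPM in wt). Of 5 tested cuticle genes, 2 were lower and 2 were higher, and of 4 tested testis genes, 1 was lower. The part that these differences have in the complex I values was not tested.

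All 30 complex I genes that passed the filter on low counts were lower in CG1603PBac larvae, against a background of 34.9% of all genes tested. Their median log2 fold change was −1.29, which is 41.0% of the wt level, whereas the median of all genes tested was 0.06. The decrease exceeded 2-fold for 26 of them, against 15% of all genes, and 20 were lower by more than 2-fold in a test against that limit (edgeR's glmTreat), which called 10.6% of all genes. Scaled by library totals alone, all 30 were still lower (22.9% of all genes were), 8 of which passed 2-fold (8.18% of all genes). Single genes ranged between −1.86 for ND-B15 and −0.63 for ND-51, with standard errors between 0.04 and 0.13, and the largest adjusted p was 2.34e-09. For each of the 30 genes, all 3 CG1603PBac libraries lay below all 3 wt libraries, as they did for 36.3% of the genes tested. NDUFA8 and NDUFS3 were lower too, with log2 fold changes of −1.37 (SE 0.06, edgeR adjusted p = 2.69e-14) and −1.32 (SE 0.06, edgeR adjusted p = 2.68e-14).

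**Figure D1:**
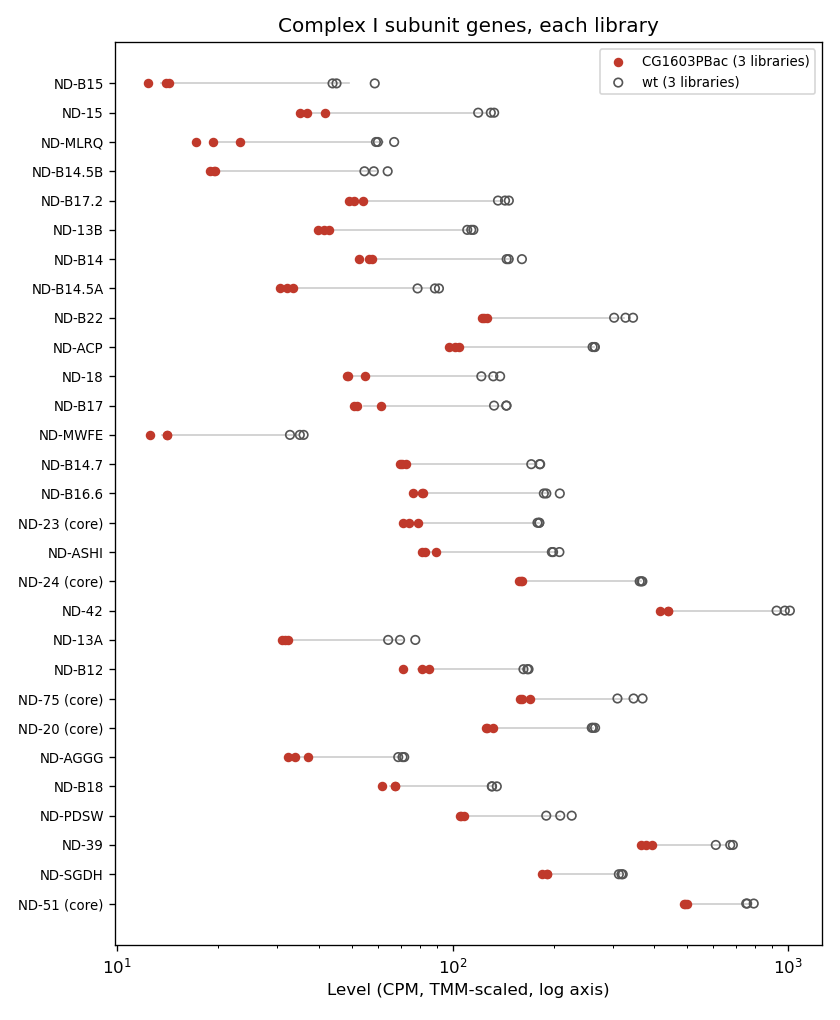
Level of the complex I genes in each of the 6 libraries, in TMM-scaled CPM on a log axis, with filled points for CG1603PBac and open points for wt. Lines join the group means and genes run downward from the strongest decrease (ND-B15, log2 fold change −1.86) to the weakest (ND-51, −0.63), with the CG1603PBac points left of the wt points in every row.

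Summed over the members, complex I transcripts took 0.394, 0.392 and 0.390% of the gene counts in the CG1603PBac libraries and 0.639, 0.641 and 0.636% in the wt libraries. The share was therefore 0.392 ± 0.00162% in CG1603PBac and 0.639 ± 0.00273% in wt (SD, n = 3 each), a gap far wider than the spread between replicates. An exact two-sided permutation test of the 6 shares gave p = 0.1, the smallest value that 3 against 3 libraries allow. On the TMM scale the sum was 3421 ± 11.2 CPM in CG1603PBac and 7323 ± 135 CPM in wt. Muscle markers fell alongside, and the members' sum divided by the muscle sum was 0.109 in CG1603PBac and 0.0899 in wt. When each gene was taken relative to that muscle sum, 4 of the 30 members and none of the 6 core genes still had all CG1603PBac libraries below all wt libraries, against 5.87% of all genes.

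The N module core is made of ND-51, ND-24 and ND-75. ND-51 (CG9140, chr2L:6060842-6062757, minus strand, dm6), the counterpart of NDUFV1, binds NADH and the flavin mononucleotide that takes its electrons. It had 490.3, 494 and 499 CPM in CG1603PBac larvae, against 756, 791 and 751 CPM in wt larvae. This was the mildest decrease among the members, with a log2 fold change of −0.63 (SE 0.04, edgeR adjusted p = 5.87e-12). ND-24 (CG5703), the NDUFV2 counterpart, sits next to ND-51 and carries an iron-sulfur cluster. Its level was 160.4, 161 and 158 CPM in CG1603PBac larvae, against 368, 361 and 365 CPM in wt larvae, a log2 fold change of −1.19 (SE 0.05, edgeR adjusted p = 1.10e-15). ND-75 corresponds to NDUFS1, the largest subunit, which holds several iron-sulfur clusters of the electron path. ND-75 stood at 170.0, 159 and 161 CPM in CG1603PBac larvae, against 347, 369 and 310.3 CPM in wt larvae, with a log2 fold change of −1.07 (SE 0.06, edgeR adjusted p = 4.69e-13).

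ND-51 did not keep its proportion to ND-24 and ND-75. Reads of ND-51 outnumbered those of ND-24 by 3.09 ± 0.0529 to 1 in CG1603PBac and by 2.10 ± 0.0772 to 1 in wt (SD, n = 3 each). Such a ratio within a library does not depend on how libraries are scaled. ND-51 also gained on ND-75, with 3.03 ± 0.125 reads per ND-75 read in CG1603PBac and 2.25 ± 0.15 in wt. ND-51 reads made up 14.4 ± 0.156% of all reads of the members in CG1603PBac and 10.5 ± 0.233% in wt, and neither of these measures overlapped between the genotypes.

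The Q module core passes electrons on to ubiquinone. ND-20 (CG9172), the NDUFS7 counterpart, carries the last iron-sulfur cluster before the quinone. Its level was 126, 132 and 126 CPM in CG1603PBac larvae, against 260.1, 266 and 263 CPM in wt larvae, and the log2 fold change was −1.04 (SE 0.05, edgeR adjusted p = 6.85e-14). ND-23 is the counterpart of NDUFS8, whose iron-sulfur clusters precede that of ND-20. The level of ND-23 was 78.8, 74.3 and 71.3 CPM in CG1603PBac larvae, against 179, 181 and 181 CPM in wt larvae, a log2 fold change of −1.27 (SE 0.06, edgeR adjusted p = 3.54e-14). ND-30, counted as NDUFS3, binds no cofactor and was measured at 123, 104 and 117 CPM in CG1603PBac larvae, against 294, 293 and 274 CPM in wt larvae.

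The fold changes of the Q module core genes lay closer together than those of the N module. The count ratio of ND-20 to ND-23 was 1.71 ± 0.0963 in CG1603PBac and 1.46 ± 0.0108 in wt, with no overlap. ND-20, ND-23 and the accessory subunit ND-18 are the members for which the study designed RT-qPCR primers, and these are shown because they mark the transcripts by which complex I was assayed outside the sequencing. The pairs, with the chromosome of each gene, are written forward then reverse, each 5′ to 3′ in lower case with no part in capitals.
ND-18 forward (chromosome X): gccgtcaatctcagcccgat
ND-18 reverse: cacgttatcggtgccgctct
ND-20 forward (chromosome X): ggctcgatctggccactgac
ND-20 reverse: gacatcggcctgacgtggag
ND-23 forward (chromosome 3R): cagcagacgtaccacacgct
ND-23 reverse: gcgtctccgtggagaactcg

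The 5 tested accessory subunits of the N module decreased within a narrow range, −1.47 to −1.15. ND-18 (CG12203) is the fly NDUFS4, a subunit that holds the N module on the matrix arm and whose loss causes Leigh syndrome in humans. It had 54.7, 48.3 and 48.9 CPM in CG1603PBac larvae, against 139, 132 and 122 CPM in wt larvae, a log2 fold change of −1.37 (SE 0.07, edgeR adjusted p = 3.92e-13). ND-B17.2 (CG3214), the NDUFA12 counterpart, takes the place of an assembly factor late in assembly in mammals. Its level was 51.0, 54.1 and 49.2 CPM in CG1603PBac larvae, against 147, 143 and 137 CPM in wt larvae, and its log2 fold change of −1.47 (SE 0.07, edgeR adjusted p = 2.47e-14) was the strongest of the module. ND-B14 and ND-B14.5A followed at −1.44 and −1.42. ND-13A, the zinc-binding NDUFS6 counterpart, was the mildest of them at −1.15 (31.0, 32.3 and 31.6 CPM in CG1603PBac larvae, against 77.4, 69.7 and 64.2 CPM in wt larvae).

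The 2 accessory subunits of the Q module stood apart from each other. ND-13B (CG6463), the NDUFA5 counterpart, was at −1.46, with 41.3, 42.6 and 39.6 CPM in CG1603PBac larvae, against 113.7, 115.3 and 110.6 CPM in wt larvae. ND-39 (CG6020), the NDUFA9 counterpart, binds a nucleotide cofactor at the junction of the matrix and membrane arms. It had 366, 393 and 378 CPM in CG1603PBac larvae, against 673, 685 and 609.7 CPM in wt larvae, a log2 fold change of −0.79 (SE 0.05, edgeR adjusted p = 2.97e-12). Its decrease was the third mildest of all members, after those of ND-51 and ND-SGDH.

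In the P module, all 15 tested genes were accessory subunits of the membrane arm and all were lower, with a decrease beyond 2-fold for 13 (34.9 and 15% of all genes tested). The strongest decrease belonged to ND-B15 (CG12859, chr2R:14756516-14757072, plus strand), the NDUFB4 counterpart. ND-B15 had 14, 12.3 and 14.3 CPM in CG1603PBac larvae, against 58.6, 43.8 and 45.1 CPM in wt larvae, a log2 fold change of −1.86 (SE 0.13, edgeR adjusted p = 2.59e-11) or 27.5% of the wt level. ND-15 was next, with 41.7, 35.2 and 36.9 CPM in CG1603PBac larvae, against 133, 119 and 130.0 CPM in wt larvae, and a log2 fold change of −1.75 (SE 0.08, edgeR adjusted p = 1.91e-14). ND-15 (CG11455) is the counterpart of NDUFS5, which faces the intermembrane space, and 15.7% of its exon length is overlapped on the opposite strand by Pus10. ND-B14.5B (CG12400), the NDUFC2 counterpart, had 19.5, 19.6 and 18.9 CPM in CG1603PBac larvae, against 64.0, 58.2 and 54.6 CPM in wt larvae, a log2 fold change of −1.61 (SE 0.10, edgeR adjusted p = 5.58e-12).

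At the other end of the P module were ND-SGDH and ND-PDSW. ND-SGDH (l(3)neo18), the NDUFB5 counterpart, had 192, 185 and 192 CPM in CG1603PBac larvae, against 313, 319 and 322 CPM in wt larvae, a log2 fold change of −0.75 (SE 0.05, edgeR adjusted p = 4.32e-12). ND-PDSW, the NDUFB10 counterpart, had 108, 106 and 105 CPM in CG1603PBac larvae, against 227, 209 and 190.2 CPM in wt larvae, a log2 fold change of −0.97 (SE 0.06, edgeR adjusted p = 7.66e-12). This fell just short of 2-fold. ND-B18 (CG5548), the NDUFB7 counterpart, was just beyond that limit at −1.02 (SE 0.06, edgeR adjusted p = 6.94e-12), with 67.1, 67.1 and 61.5 CPM in CG1603PBac larvae, against 135, 131 and 131 CPM in wt larvae. ND-42, the counterpart of NDUFA10 with the fold of a nucleoside kinase, was the most abundant member per kb of exon in wt. It was measured at 440.2, 417 and 440.0 CPM in CG1603PBac larvae, against 979.6, 1014 and 926 CPM in wt larvae, a log2 fold change of −1.17 (SE 0.04, edgeR adjusted p = 6.82e-16).

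Several smaller sets of subunits share a structure. ND-ACP (mtacp1) is the mitochondrial acyl carrier protein, which also serves mitochondrial fatty acid synthesis and occupies a place in both arms, each time bound to a subunit of the LYR family. ND-ACP had 105, 101 and 97.7 CPM in CG1603PBac larvae, against 262, 266 and 265 CPM in wt larvae, a log2 fold change of −1.38, and its LYR partners ND-B14 and ND-B22 were at −1.44 and −1.39, so that the 3 values differed by no more than the sum of their standard errors. In contrast, the subunits whose mammalian counterparts are held by disulfide bonds in the intermembrane space spread widely, with −1.75 for ND-15, −1.37 for ND-19, −1.02 for ND-B18 and −0.97 for ND-PDSW. Among the subunits with a single membrane helix, only some of which are named here, ND-B17 was at −1.37, ND-ASHI at −1.26, ND-B12 at −1.07 and ND-AGGG at −1.03. ND-B16.6, the counterpart of NDUFA13, also called GRIM-19, was at −1.30, ND-B14.7 was at −1.33 and ND-MWFE was at −1.35. Reads from overlapping neighbours may enter some of these counts, since the strand setting of the counting was not given in the sources used here. On the opposite strand, other genes overlapped 26.1% of the exon length of ND-B22, 17.5% of that of ND-B16.6 and 19.8% of that of ND-MWFE.

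ND-MLRQ (CG32230), the NDUFA4 counterpart kept apart from the other members, had 23.1, 19.3 and 17.1 CPM in CG1603PBac larvae, against 59.1, 59.9 and 66.9 CPM in wt larvae. Its log2 fold change of −1.64 (SE 0.11, edgeR adjusted p = 2.48e-11) was the third strongest of the 30.

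The core subunits as a class decreased somewhat less than the accessory subunits. The 6 core genes had a median log2 fold change of −1.13 (range −1.27 to −0.63, 5 beyond 2-fold), and the 23 accessory genes tested had −1.35 (range −1.86 to −0.75, 20 beyond 2-fold). With NDUFS3 among the core and NDUFA8 among the accessory genes the medians were −1.19 and −1.36. Within each library, the mean log2 CPM of the core genes exceeded that of the accessory genes by 1.504 ± 0.00688 in CG1603PBac and by 1.283 ± 0.0333 in wt (SD, n = 3 each). This excess differed by 0.22 and did not overlap between the genotypes. It includes ND-51, the core gene with the mildest decrease (−0.63), and was not computed without that gene. Computed from the mean counts per kb over the genes of each class, the log2 excess was 0.64 ± 0.00258 in CG1603PBac and 0.45 ± 0.0208 in wt. The classes overlapped gene by gene, since the decrease of ND-23, at −1.27, exceeded that of several accessory genes. By position in the complex, the medians were −1.28 for the N module (8 genes), −1.23 for the Q module (5 genes) and −1.30 for the P module (15 genes), so that the modules differed from each other by less than the genes within any of them. Inside the N module, the core genes had a median of −1.07 and the accessory genes −1.42. The Q module had the opposite order, with −1.23 for its 3 core genes and −1.13 for its 2 accessory genes.

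**Figure D2:**
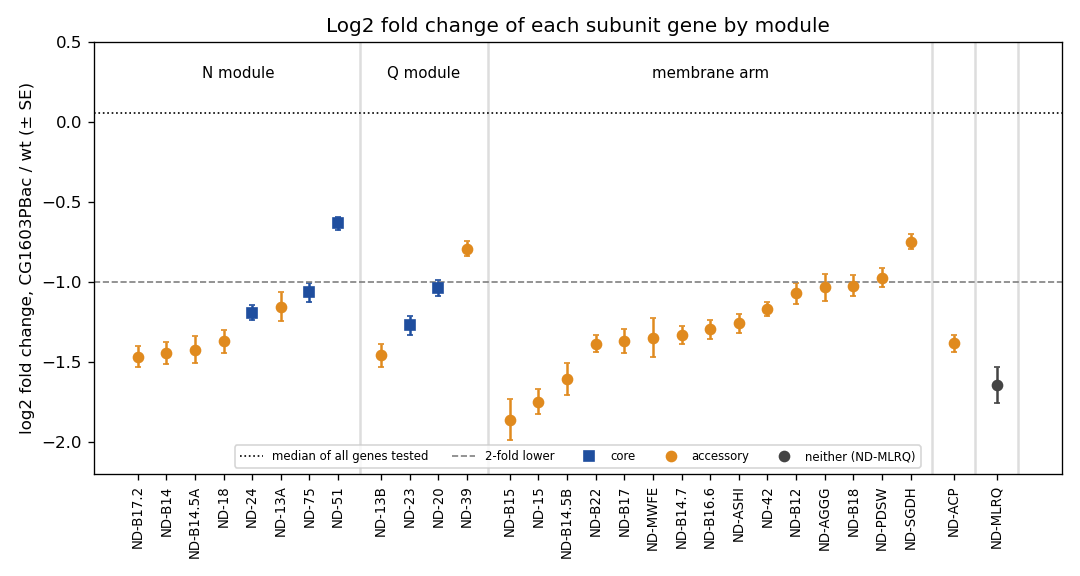
Log2 fold change of CG1603PBac over wt with its standard error for each complex I gene shown, grouped by module and coloured by class. Every point lies below 0, the module medians lie between −1.30 and −1.23, and ND-51 (−0.63), ND-SGDH (−0.75) and ND-39 (−0.79) are the highest points.

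**Figure D3:**
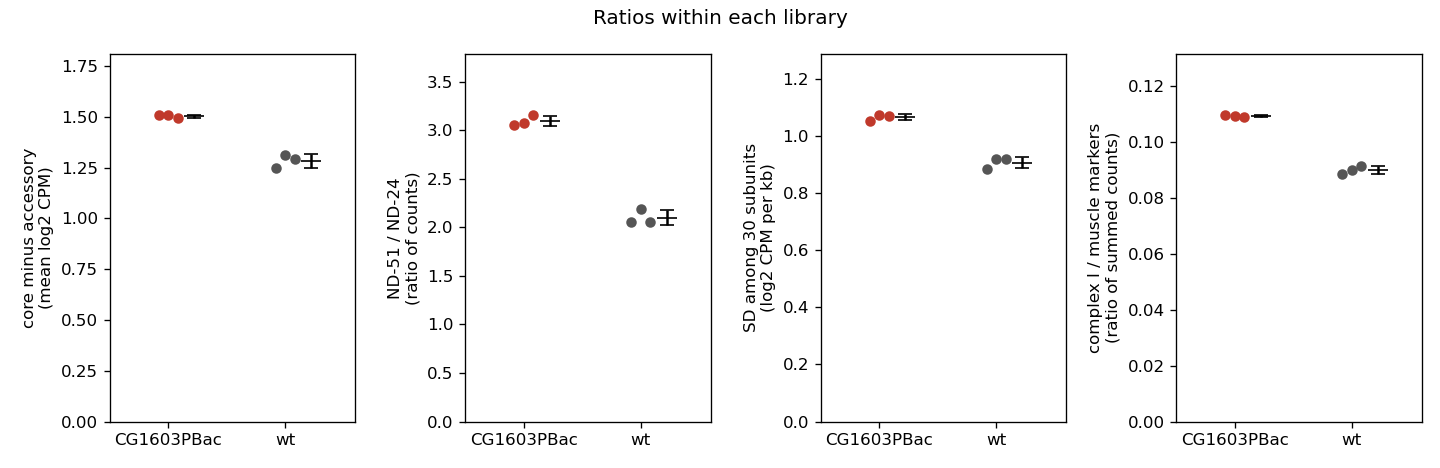
Measures taken inside each library, with CG1603PBac left of wt, a point for each library and a bar for the mean with its SD. All 4 measures were higher in CG1603PBac, namely the core excess over accessory genes (1.504 against 1.283, log2), the ND-51 to ND-24 ratio (3.09 against 2.10), the spread of levels per kb (SD 1.07 against 0.907, log2) and the members' sum over that of the muscle markers (0.109 against 0.0899).

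Levels between genes were compared per kb of exon. In CG1603PBac they spanned 16.1 CPM per kb for ND-MWFE to 311 for ND-51, a 19.36-fold range around a median of 69.6. The wt levels spanned 40.9 CPM per kb for ND-MWFE to 601 for ND-42, a 14.69-fold range around a median of 192. The order of the genes was largely kept, with a Pearson correlation of the mean log2 levels between genotypes of 0.97 and a Spearman correlation of 0.98 across the 30 genes, which share the libraries and are not independent replicates. ND-51 and ND-42 exchanged the first and second places. ND-51 stood at 311 in CG1603PBac and 482 in wt, and ND-42 at 267 in CG1603PBac and 601 in wt, in CPM per kb. The spread among the members, as the SD of log2 CPM per kb within a library, was 1.07 ± 0.0102 in CG1603PBac and 0.907 ± 0.0199 in wt (SD, n = 3 each), with no overlap. The median per kb was 121 CPM for core and 65.9 CPM for accessory genes in CG1603PBac, and 282 and 170.4 CPM in wt.

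Members with a low level tended to have the stronger decreases. Across the 30 genes the log2 fold change correlated with the mean log2 CPM at r = 0.67 (Spearman 0.63) and with the level per kb at r = 0.57 (Spearman 0.48), whereas over all genes the correlation with CPM was −0.18 (Spearman −0.20). These are descriptions across genes that share libraries, and each fold change is computed from the same counts as the level. Exon length moved in the same direction. The correlation with log2 exon length was 0.52 by both measures among the members, against 0.12 (Spearman 0.18) over all genes. The 15 members with shorter exons (477 to 844 bp, 1 of them core) had a median log2 fold change of −1.38, and the 15 with longer exons (871 to 2634 bp, 5 of them core) had −1.17. The 12 accessory genes within the length range of the core genes (819 to 2634 bp) had a median of −1.28, against −1.13 for the core genes. Once the trend of fold change with length over all genes was removed, the medians were −0.98 for core and −1.10 for accessory genes.

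**Figure D4:**
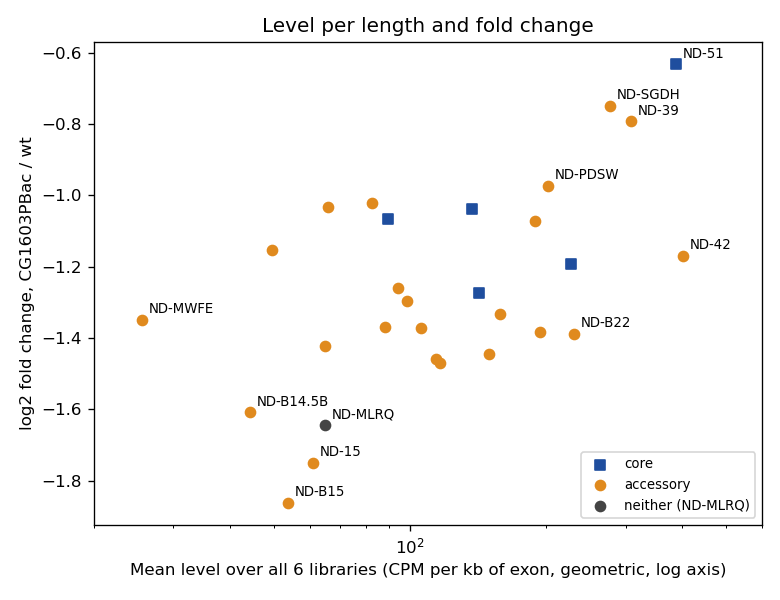
Log2 fold change of CG1603PBac over wt against the mean level over the 6 libraries in CPM per kb of exon (log axis), with a point for each gene shown. ND-B15 (−1.86) and ND-15 (−1.75) lie low on the left and ND-51 (−0.63) lies high on the right. Among the genes with high levels, ND-42 (−1.17) and ND-B22 (−1.39) lie well below ND-51.

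By chromosome arm, the median log2 fold change was −1.23 for 8 genes on X, −1.38 for 8 on 2L, −1.35 for 5 on 2R, −1.21 for 6 on 3L and −1.22 for 2 on 3R.

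Other genes of complex I moved less uniformly. A further 4 subunit genes and 7 genes for assembly factors were measured, and of these 11 genes 9 were lower, 1 was higher and 1 did not pass the test, against 34.9% lower and 34.8% higher among all genes tested. Among the subunits, NdufA3 was at −1.81 (SE 0.13, edgeR adjusted p = 5.77e-11), NdufV3 at −1.56 (SE 0.10, edgeR adjusted p = 1.09e-11) and NP15.6, the NDUFB11 counterpart, at −0.87 (SE 0.06, edgeR adjusted p = 1.16e-11). CG40472, a related copy of ND-AGGG, had 8.01, 11.4 and 9.58 CPM in CG1603PBac larvae, against 12.2, 13.9 and 9.56 CPM in wt larvae, which overlapped (adjusted p = 0.185, edgeR), and reads of the copies may be divided between them. Assembly factors build the complex but do not stay in it. ECSIT, part of the complex that assembles the membrane arm in mammals, was at −1.72 (SE 0.11, edgeR adjusted p = 1.19e-11). CG5569 and CG11722, the counterparts of the partner factors NDUFAF3 and NDUFAF4 of the Q module, were at −1.06 and −1.03. The counterpart of FOXRED1, l(2)37Bb, was at −0.89, CIA30 (NDUFAF1) was at −0.58 and sicily (NDUFAF6) was at −0.32 (SE 0.10, edgeR adjusted p = 0.00854). The call on CIA30 was lost with library totals alone, and that on sicily was lost there and once the length trend was removed. Nubpl, which is needed for the iron-sulfur clusters of complex I in mammals, was the exception. It had 135, 143 and 143 CPM in CG1603PBac larvae, against 119, 102 and 111 CPM in wt larvae, a log2 fold change of 0.35 (SE 0.06, edgeR adjusted p = 5.44e-05). Once the length trend was removed, the log2 fold change of Nubpl turned to −0.20 and was called lower (edgeR adjusted p = 0.0096), so its direction depends on that correction. The 7 assembly genes had a median of −0.89, against −1.29 for the members.

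**Figure D5:**
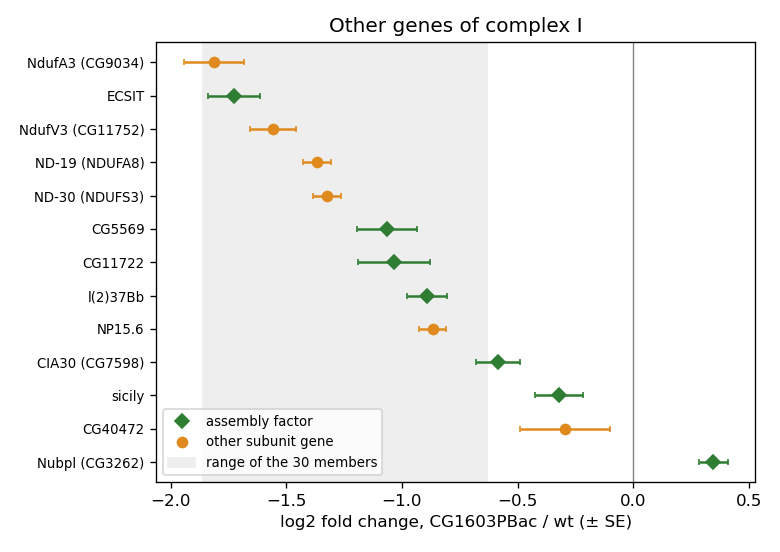
Log2 fold change of CG1603PBac over wt with its standard error for assembly factors (diamonds) and for subunit genes that are not members (circles), with the range of the 30 members shaded. NdufA3 (−1.81) and ECSIT (−1.72) lie at the strong end of that range, whereas CIA30 (−0.58), sicily (−0.32), CG40472 (−0.30) and Nubpl (0.35) lie outside it.

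Both members that did not pass the filter were nearly or wholly without counts. ND-B8 (CG15434) had 0, 6 and 9 reads in CG1603PBac and 0 in each wt library, where 3 reads, the upper limit that a count of 0 allows, correspond to 0.0996 to 0.104 CPM, for counting error only. ND-MNLL (CG18624) had 0 reads in all 6 libraries, and its exons are fully covered on the same strand by CG45089, whose count was also 0 throughout. Paralogs of the members had few reads as well. ND-51L1, a copy of ND-51, had 28, 11 and 41 reads in CG1603PBac and 20, 1 and 3 in wt, and its log2 fold change of 1.44 (SE 1.01, edgeR adjusted p = 0.209) did not pass the test. Without wt replicate 1 it was 3.36 and passed (edgeR adjusted p = 0.0249), and without wt replicate 2 it was 0.92. A second copy, ND-51L2, had 2, 10 and 12 reads in CG1603PBac and 0 in each wt library, and the copies of ND-24, ND-20 and ND-B14.5A had at most 13 reads in any library.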

How the data were processed

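Whole second-instar larvae were profiled by poly(A) RNA-seq in 3 CG1603PBac and 3 wt replicates. Read counts per gene were deposited by the authors, 1 file per library, made from paired Illumina NovaSeq reads with FastQC, STAR on dm6 and HTSeq (strand setting not given in the sources used here). Molecular identifiers are not mentioned, so the limits given for counts of 0 cover counting error only. The 5 HTSeq categories that name no gene (44.8 to 45.5% of reads in CG1603PBac, 20.2 to 21.0% in wt) were left out. Genes were matched to Ensembl release 115 and RefSeq names, 12512 by current and 4012 by older symbol, 203 not at all, and coordinates are dm6.

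Counts were tested with edgeR 4.0.16 (R 4.3.3; TMM scaling, filterByExpr with a minimum count of 10 and total of 15, robust quasi-likelihood fit of the 6 libraries on genotype, no covariate), with Benjamini-Hochberg adjustment over 11306 genes and a threshold of 0.05. The biological coefficient of variation was 0.127. In simulated counts with 11109 genes tested, 67, 67 and 66 genes were changed 1.5-, 2- and 4-fold. Of these, 58.2, 73.1 and 87.9% were recovered, with 8 false calls among 154 calls. Far fewer genes were changed there than were called in the data, so these rates do not carry over directly to this comparison. DESeq2 1.42.0 and limma 3.58.1 (voom), other scalings and filters, a length correction, a replicate block and leaving out each library were alternatives. Per-library measures used counts or TMM-scaled CPM, and levels per kb used the union of exons. The edgeR p-values set the difference between genotypes against the spread between these replicates, as estimated with information shared across genes.

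The members and lists were chosen with earlier results of these data known. Genes given in full are the core subunits, the 5 strongest and 5 mildest decreases and the exceptions, and further genes were named for their roles. 3 assembly candidates were dropped and 4 genes added from their annotated names after the data were seen. A search of promoters for motifs was not run, as no promoter sequence was used here. 1 member, the only one on its chromosome, entered the counts and medians over the members, classes and modules but is not reported here on its own, in the medians by chromosome or in the figures.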

Additional observations from a re-analysis of the deposited data

How the results depend on the processing

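Each of the 30 members kept its direction and its call under 14 alternative fits, and 203 of 209 values of the other named genes did so. With library totals alone, the median log2 fold change was −0.89 for the members, −0.73 for core, −0.96 for accessory genes, −0.89 for the N module, −0.84 for the Q module and −0.90 for the P module. In that setting 8 members were lower by more than 2-fold (8.18% of all genes; 22.9% were lower), sicily turned to 0.074 and CG40472 to 0.10. Keeping only genes with at least 10 counts in every library gave −1.25 for the members, −1.09 for core, −1.31 for accessory, −1.25 for N, −1.19 for Q and −1.26 for P, with 10096 genes tested. Removing the length trend gave −1.08 for the members, −0.98 for core, −1.10 for accessory, −1.06 for N, −0.99 for Q and −1.07 for P, and turned Nubpl to −0.20. Settings chosen after seeing the data were core with NDUFS3, at −1.19, and the members relative to the muscle sum, where 4 of 30 did not overlap. The cause of these shifts was not tested. When 1 library was left out, the median ranged from −1.31 to −1.27 for the members, from −1.18 to −1.12 for core and from −1.38 to −1.32 for accessory genes, and 24 to 27 members were lower by more than 2-fold.

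Replicate numbers did not pair the samples. The deviations of same-numbered libraries from the mean of their genotype correlated at only 0.006, −0.02 and −0.008. With a replicate block, all 30 members were lower (median −1.28) among 7741 calls, against 7882 without it, and no call on a member changed. ND-B8, ND-MNLL and the paralogs had too few reads for a firm value, and why was not tested. As the exons of ND-MNLL are fully covered by another gene on the same strand, its count of 0 does not show that the transcript was absent.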
